A study of Mus musculus with 26 samples.

Results

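The MYC, MAX and MXD network was followed by 10 genes in mouse pineoblastoma (PB), an aggressive tumor of the pineal gland. The members were taken by gene symbol from the array annotation: Myc, Mycn, Mycl, Max, Mxd1, Mxd3, Mxd4, Mxi1, Mnt and Mga. All 10 were measured on both array versions, among 19938 genes on the Mouse Gene 1.0 ST array and 22180 genes on the Mouse Gene 2.0 ST array. The 26 arrays held 1 sample each, in 5 groups. Version 1.0 arrays carried 5 Rb/p53-mutated PBs, 11 Rb/p53-deleted PBs (PB1 to PB11) and 3 samples of normal cerebellum. On version 2.0 arrays there were 3 Rb/Dicer1/p53-deleted PBs, 3 Dicer1/p53-deleted PBs and the remaining Rb/p53-deleted PB, PB12. Every tumor arose in mice with the WAP-Cre transgene, in which Cre is driven by the promoter of a milk protein gene, on mixed genetic backgrounds. Rb/p53-deleted PBs came from Rb flox/flox, p53 flox/flox mice. Rb/p53-mutated PBs came from Rb flox/flox mice with a Cre-activated point-mutant p53 allele over a floxed one, as the study defines this group. The other tumors had Dicer1 flox/flox and p53 flox/flox alleles, with or without Rb flox/flox. The genotype and age of the cerebellum donors are not given in the sources used here, and cerebellum is another tissue than pineal gland.

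MYC, MYCN and MYCL are transcription factors that bind DNA as pairs with MAX, mostly at the sequence known as the E-box, and raise genes for ribosome production, metabolism and cell division. MXD1, MXD3, MXD4, MXI1, MNT and MGA also pair with MAX and bind the same sites. The MXD proteins, MXI1 and MNT bring the SIN3 corepressor with its histone deacetylases, whereas MGA is a part of a Polycomb complex with E2F6, PCGF6 and L3MBTL2. MYCN is used in the developing nervous system and is the MYC gene best known from neuroblastoma and medulloblastoma. Most MXD proteins are tied to differentiation, but MXD3 is found in dividing progenitor cells.

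The 300 bases around each start site (250 before and 50 after it, RefSeq GRCm38.p6) were read for the E-box CACGTG and for E2F sites, since E2F factors are bound and held back by RB, the protein whose gene the Rb models were bred to delete. The table held 11 such promoters for 9 members. The E2F letters searched were TTTGGCGC, TTTCCCGC, TTTCGCGC and TTTGCCGC on both strands. Of all 32851 promoters in that table, 7.15% held the E-box and 2.26% held an E2F site. The 4 promoters below belong to members whose levels differed between tumor and cerebellum, 2 higher and 2 lower in tumors, and motif letters are in capitals. Mycn held 3 E2F matches, starting at positions -183, -179 and -168 from the start site, of which the first and second overlap. Max held an E-box at position -3 and Mxd4 one at position -219. The Mxd3 promoter held neither. They lie at chr12:12941787-12942086 (Mycn), chr13:55329682-55329981 (Mxd3), chr12:76962199-76962498 (Max) and chr5:34187661-34187960 (Mxd4), all on the minus strand.
Mycn: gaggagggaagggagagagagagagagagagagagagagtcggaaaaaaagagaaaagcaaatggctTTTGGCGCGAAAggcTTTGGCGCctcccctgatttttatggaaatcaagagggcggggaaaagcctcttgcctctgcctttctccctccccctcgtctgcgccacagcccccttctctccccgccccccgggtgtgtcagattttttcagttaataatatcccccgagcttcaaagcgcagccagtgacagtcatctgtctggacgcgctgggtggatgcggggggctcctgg
Mxd3: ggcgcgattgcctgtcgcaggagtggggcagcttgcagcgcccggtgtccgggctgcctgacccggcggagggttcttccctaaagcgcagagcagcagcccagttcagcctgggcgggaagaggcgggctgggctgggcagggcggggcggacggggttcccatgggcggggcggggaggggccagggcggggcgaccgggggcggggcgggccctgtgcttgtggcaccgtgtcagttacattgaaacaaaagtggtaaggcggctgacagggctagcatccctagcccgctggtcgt
Max: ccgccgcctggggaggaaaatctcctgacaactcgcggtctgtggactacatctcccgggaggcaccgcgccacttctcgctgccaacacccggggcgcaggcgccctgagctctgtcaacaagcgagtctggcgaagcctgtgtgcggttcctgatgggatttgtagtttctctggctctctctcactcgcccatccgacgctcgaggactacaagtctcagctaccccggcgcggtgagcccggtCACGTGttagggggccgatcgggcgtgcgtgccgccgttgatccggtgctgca
Mxd4: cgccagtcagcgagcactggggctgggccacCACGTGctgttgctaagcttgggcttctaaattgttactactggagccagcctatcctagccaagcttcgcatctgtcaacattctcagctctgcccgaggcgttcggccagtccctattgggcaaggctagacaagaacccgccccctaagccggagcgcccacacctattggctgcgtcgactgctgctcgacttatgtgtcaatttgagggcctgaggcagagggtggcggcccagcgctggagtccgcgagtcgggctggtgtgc

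The Mnt promoter at chr11:74830674-74830973 (plus strand) held an E-box at position -123. Neither motif was found in the promoters of Mycl, Mxd1, Mxi1 and Mga. A match is only a run of letters and says nothing of whether a factor was bound in these tumors.

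All levels are log2 values. The deposited version 1.0 arrays did not share a common scale: their medians were 7.04 to 7.12 in Rb/p53-mutated PBs and 7.90 to 7.97 in Rb/p53-deleted PB1 to PB10, and the interquartile range of the 10 PBs was 2.57 to 2.87, against 3.17 to 3.25 in Rb/p53-deleted PB11 and cerebellum. The 19 arrays were therefore quantile-normalized together, and levels below are on that scale unless stated. Pineal markers averaged 10.64 to 11.34 in Rb/p53-mutated PBs and 10.95 to 11.37 in Rb/p53-deleted PBs, against 7.25 to 7.54 in cerebellum. The 6 granule neuron markers were lower in all tumors (8.37 to 8.72 and 8.54 to 9.32, against 12.54 to 12.59), as were the Purkinje markers (6.28 to 6.58 and 6.43 to 7.69, against 12.43 to 12.48). The levels of both kinds of marker thus went with the labels, and every comparison with cerebellum is also one between cell types. In RNA of whole tissue, fewer cells of a type and less RNA per cell cannot be told apart. Trp53 was not analysed here. The Rb1 probes span the whole gene and check its deletion only in part: Rb1 read 10.17 ± 0.219 in Rb/p53-mutated PBs (SD, n = 5) and 10.37 ± 0.289 in Rb/p53-deleted PBs (n = 11), against 10.03 ± 0.0525 in cerebellum (n = 3), and neither difference from cerebellum was called.

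Myc and Mycn were high in both Rb models. After joint quantile normalization each was higher in all 16 tumors than in any cerebellum sample, and of the 10 members Mycn differed most. Mycn read 11.09, 12.00, 11.79, 11.60 and 12.26 in Rb/p53-mutated PB1 to PB5, and from 10.50 through a median of 10.75 to 11.45 in Rb/p53-deleted PBs, against 7.85, 7.60 and 7.91 in cerebellum. The groups lay far apart. The mean was 15.6-fold higher in Rb/p53-mutated PBs (log2 difference 3.96, SE 0.23, adjusted p = 4.41e-07) and 8.33-fold higher in Rb/p53-deleted PBs (3.06, SE 0.16, adjusted p = 4.85e-11; limma, Benjamini-Hochberg over 19938 genes, calls at 0.01). Both comparisons use the same 3 cerebellum arrays.

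Myc read 10.19, 8.95, 10.20, 10.62 and 9.69 in Rb/p53-mutated PB1 to PB5, and from 9.70 through 10.44 to 11.57 in Rb/p53-deleted PBs, against 7.60, 8.29 and 7.64 in cerebellum. The tumors were spread much more widely for Myc than for Mycn, yet the lowest tumor, Rb/p53-mutated PB2, was still above the highest cerebellum sample. The mean was 4.25-fold higher in Rb/p53-mutated PBs (2.09, SE 0.34, adjusted p = 0.000497) and 6.06-fold higher in Rb/p53-deleted PBs (2.60, SE 0.30, adjusted p = 1.35e-06). On the deposited scale, where the Rb/p53-mutated arrays lie lower as a whole, the Myc difference of these tumors was 1.14 and was not called (adjusted p = 0.0121). There Rb/p53-mutated PB2 read 8.26, below the highest cerebellum sample (8.64).

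Mycl, the third MYC gene, read 8.01, 8.01, 8.21, 7.76 and 7.78 in Rb/p53-mutated PBs and 7.74 to 8.51 in Rb/p53-deleted PBs, against 7.62, 7.45 and 7.56 in cerebellum. The groups did not overlap but the steps were small, 0.41 (SE 0.11, adjusted p = 0.0111) and 0.43 (SE 0.13, adjusted p = 0.0101), and neither was called. Without Rb/p53-deleted PB11, the tumor with the highest Mycl, the difference of that group was called (adjusted p = 0.00348), and on the deposited scale the Rb/p53-mutated difference turned to -0.47.

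**Figure D1:**
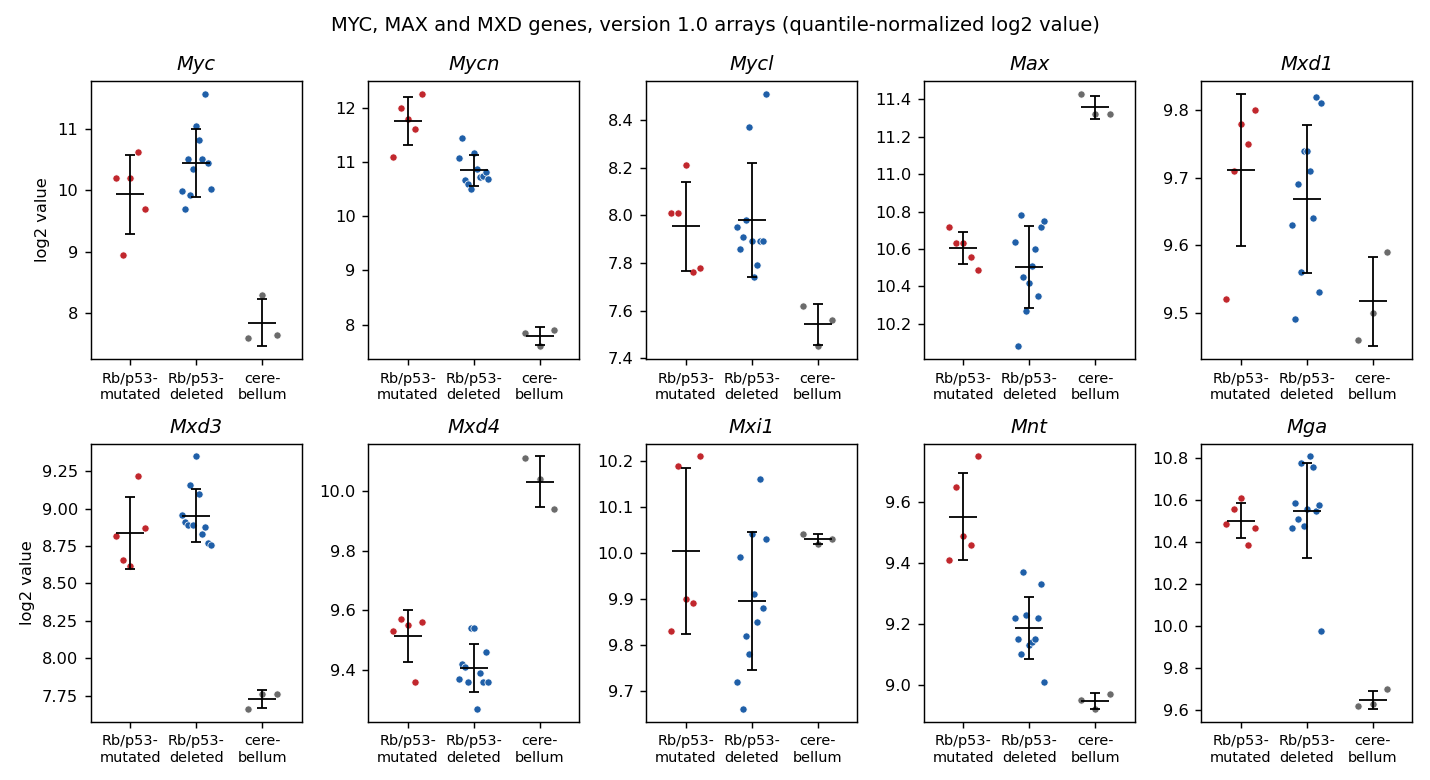
Log2 level of each of the 10 members in every version 1.0 array after joint quantile normalization, by group (5 Rb/p53-mutated PBs, 11 Rb/p53-deleted PBs, 3 normal cerebellum samples). Points are arrays and bars are the mean ± SD. Myc, Mycn, Mycl, Mxd3, Mnt and Mga lie above cerebellum in every tumor, and Max and Mxd4 lie below it.

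Max, the shared partner of the other members, was lower in tumors. It read 10.72, 10.63, 10.63, 10.56 and 10.49 in Rb/p53-mutated PBs and 10.08 to 10.78 in Rb/p53-deleted PBs, against 11.43, 11.32 and 11.32 in cerebellum. No tumor reached the cerebellum samples. The mean was 0.594 times that of cerebellum in Rb/p53-mutated PBs (-0.75, SE 0.08, adjusted p = 2.64e-05) and 0.555 times in Rb/p53-deleted PBs (-0.85, SE 0.12, adjusted p = 1.69e-05), with differences of -1.92 and -1.22 on the deposited scale. With the spread of the deposited arrays as a block, where Rb/p53-deleted PB11 alone shares a set with cerebellum, the difference of Rb/p53-deleted PBs was -0.60 and not called (adjusted p = 0.0324).

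The 4 MXD genes (Mxi1 is also known as Mxd2) did not move together. Mxd3 was the one that was higher in tumors, at 8.82, 8.66, 8.62, 9.22 and 8.87 in Rb/p53-mutated PBs and 8.76 to 9.35 in Rb/p53-deleted PBs, against 7.66, 7.76 and 7.76 in cerebellum. That was 2.16-fold (1.11, SE 0.13, adjusted p = 6.67e-05) and 2.34-fold (1.23, SE 0.10, adjusted p = 3.13e-08), the first of which shrank to 0.16 without a call on the deposited scale. Mxd4 was lower, at 9.53, 9.57, 9.55, 9.36 and 9.56 in Rb/p53-mutated PBs and 9.27 to 9.54 in Rb/p53-deleted PBs, against 10.11, 10.04 and 9.94 in cerebellum. Its mean was 0.701 times (-0.51, SE 0.08, adjusted p = 0.000417) and 0.65 times that of cerebellum (-0.62, SE 0.07, adjusted p = 4.7e-07), and the differences were -1.76 and -1.0 on the deposited scale. Mxd4 was also among the steadiest genes: across Rb/p53-deleted PBs its SD was 0.0805, and 96% of all genes had a larger one.

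Mxd1 and Mxi1 overlapped or nearly met cerebellum. Mxd1 read 9.52 to 9.80 in Rb/p53-mutated PBs and 9.49 to 9.82 in Rb/p53-deleted PBs, against 9.46 to 9.59 in cerebellum (0.20, adjusted p = 0.0722, and 0.15, adjusted p = 0.0867). Mxi1 read 9.83 to 10.21 and 9.66 to 10.16, against 10.02 to 10.04 (-0.02, adjusted p = 0.857, and -0.13, adjusted p = 0.213). Neither was called, and the sign of Mxd1 turned on the deposited scale (-1.02 and -0.20). Mxi1 was called lower in both models on the deposited scale (-1.25 and -0.52) and with centred arrays (-0.36 and -0.48).

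Mga, the scaffold of the Polycomb complex, was higher in every tumor: 10.49, 10.56, 10.61, 10.39 and 10.47 in Rb/p53-mutated PBs and 9.98 to 10.81 in Rb/p53-deleted PBs, against 9.62, 9.63 and 9.70 in cerebellum. The folds were 1.81 (0.86, SE 0.08, adjusted p = 9.38e-06, though -0.33 on the deposited scale) and 1.87 (0.90, SE 0.13, adjusted p = 1.11e-05, but 0.33 and adjusted p = 0.0727 with array spread as a block). Mnt, a repressor expressed in most cells, read 9.41, 9.65, 9.49, 9.46 and 9.75 in Rb/p53-mutated PBs and 9.01 to 9.37 in Rb/p53-deleted PBs, against 8.95, 8.92 and 8.97 in cerebellum. It was 1.52-fold higher in Rb/p53-mutated PBs (0.60, SE 0.09, adjusted p = 0.000367) and 1.18-fold higher in Rb/p53-deleted PBs (0.24, SE 0.07, adjusted p = 0.00868), and both signs turned on the deposited scale (-0.55 and -0.05). The call in Rb/p53-deleted PBs was lost without any 1 of the 3 cerebellum samples (adjusted p = 0.0256 to 0.0411) and without Rb/p53-deleted PB2 (adjusted p = 0.0105).

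In each Rb model 5 members were higher than in cerebellum (Myc, Mycn, Mxd3, Mnt and Mga) and 2 were lower (Max and Mxd4), of 10. Over all genes the call was higher for 23.8% and lower for 27.5% with mutated p53, and higher for 25% and lower for 27.7% with deleted p53. The median difference of the members was 0.50 and 0.34, against -0.02 and 0.01 over all genes. Tumors and cerebellum did not overlap for 8 of the 10 members in each model. The same held for 64.2% of all genes with mutated p53 and 48.3% with deleted p53. With so large a part of all genes called, the number of members called is a description only.

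**Figure D2:**
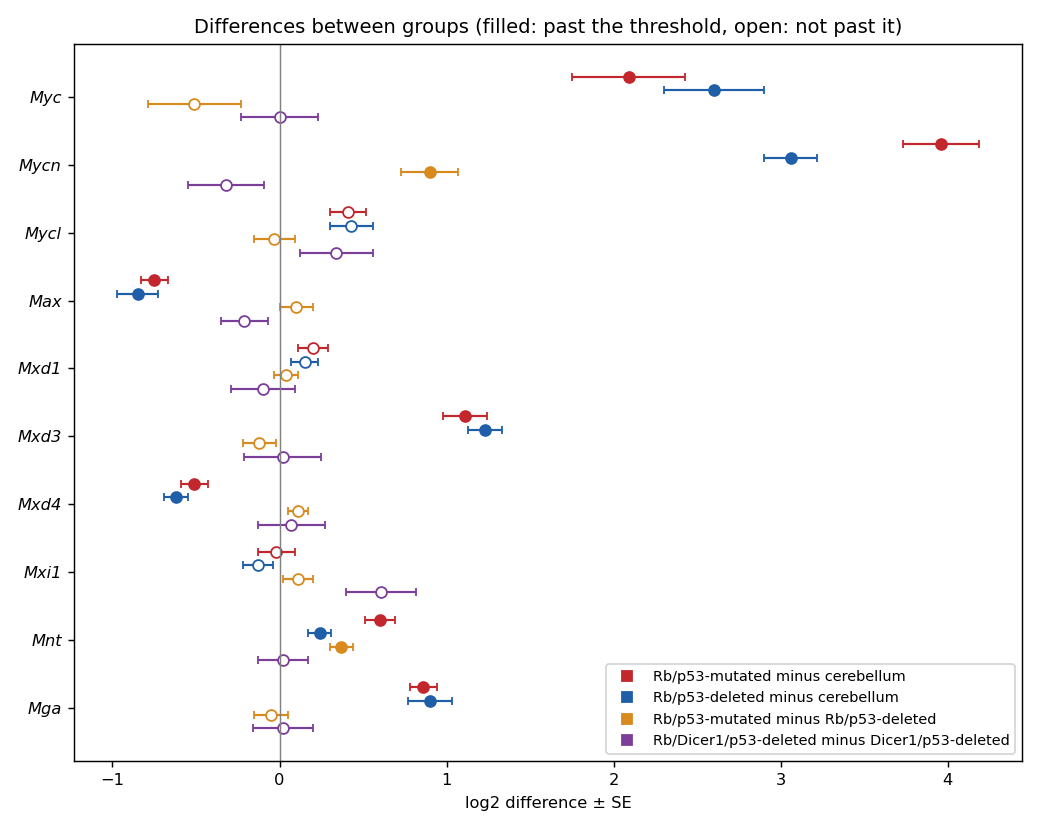
Log2 difference of each member with its SE in the 4 comparisons (each Rb model minus cerebellum, the p53-mutated minus the p53-deleted Rb model, and the Dicer1 model with Rb deletion minus the one without); filled points passed the threshold. Mycn and Myc have the largest differences from cerebellum, and no member passed between the Dicer1 models.

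Which tumors carried more Myc or Mycn was read tumor by tumor. Among Rb/p53-deleted PBs, Myc was highest in PB9 (11.57), PB6 (11.05) and PB7 (10.82) and lowest in PB2 (9.70), PB4 (9.92) and PB1 (9.98), a 3.66-fold range. Its SD of 0.549 was larger than that of nearly all genes: 2.14% exceeded it, and the median gene had 0.167. Mycn was highest in PB2 (11.45), PB6 (11.16) and PB1 (11.08) and lowest in PB5 (10.50), with an SD of 0.28 that 15.6% of genes exceeded. PB2 thus had the most Mycn and the least Myc of its group. PB6 was second for both.

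Among Rb/p53-mutated PBs, Mycn was highest in PB5 (12.26) and PB2 (12.00), and these were the tumors with the lowest Myc (9.69 and 8.95). PB4 had the most Myc (10.62) and PB1 the least Mycn (11.09). The SDs of 0.64 for Myc and 0.443 for Mycn were exceeded by 2.75% and 7.46% of genes. A correlation over 5 tumors was not computed. Across the 11 Rb/p53-deleted PBs Myc and Mycn had no clear relation (Pearson r = -0.16, permutation p = 0.637, Spearman rho = 0.05, permutation p = 0.882, adjusted p = 0.637 and 0.882 over 6 relations). Without the tumors farthest from the median of Myc (PB9 and PB2), r was 0.43 over 9 tumors, so the sign rested on those.

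**Figure D3:**
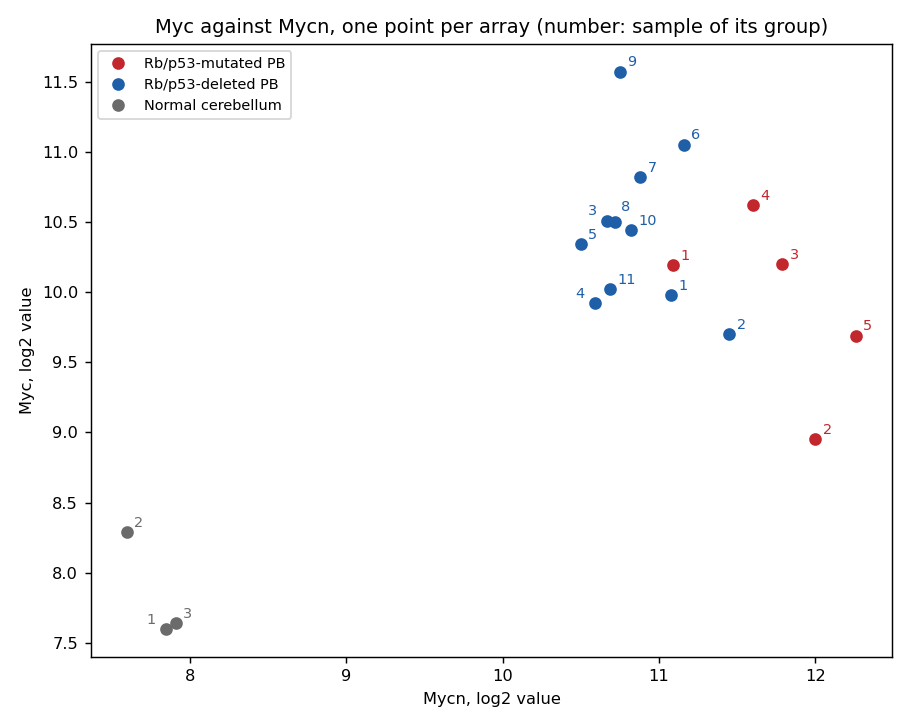
Log2 level of Myc (vertical axis) and of Mycn (horizontal axis) in each version 1.0 array, 1 point per sample, labelled by its number within the group. Rb/p53-mutated PB5 and PB2 and Rb/p53-deleted PB2 lie at the high-Mycn, low-Myc edge of their groups, and the 3 cerebellum samples lie low for both genes.

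The other 5 relations over the 11 Rb/p53-deleted PBs did not pass either. Mki67, a marker of cycling cells, had r = 0.31 with Myc (permutation p = 0.345) and 0.22 with Mycn (permutation p = 0.497), and rho was 0.26 and 0.12 (permutation p = 0.429 and 0.722). The closest was Mxd3 with Mki67, at r = 0.53 (permutation p = 0.0996, adjusted 0.517) and rho = 0.58 (permutation p = 0.0638, adjusted 0.191), and r = 0.51 without 2 tumors. Mycl ran against Mycn at r = -0.43 (permutation p = 0.173, adjusted 0.517) and rho = -0.60 (permutation p = 0.0587, adjusted 0.191), and against Myc at r = -0.32 (permutation p = 0.328) and rho = -0.39 (permutation p = 0.232). Of 19937 other genes, those that followed Myc most closely over the same 11 tumors were Adcy6 (r = 0.974), H2ac1 (0.968), Ier5l (0.958), H2bc8 (0.94) and Cebpa (0.938). For Mycn they were Syt4 (0.946), Dnajc19 (0.923), Kcnc1 (0.918), Galnt9 (0.894) and Ppip5k2 (0.886). These values are the highest of many and describe the 11 arrays only.

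Mycn (chr12:12936093-12941836) and Max (chr12:76937269-76962323) lie on the same chromosome, so the levels of the genes around them were read in each tumor as the log2 deviation from the median of the Rb/p53-deleted PBs, over genes with a mean level above that of the median gene. The tumor with the most Mycn in each Rb model, and Rb/p53-mutated PB2, also had higher levels of the genes beside it. In Rb/p53-mutated PB5, Mycn deviated by 1.51 and the 24 other genes within 5 Mb of its start by a median of 1.13, with 22 of them above 0 and 20 above 0.5. In Rb/p53-mutated PB2 Mycn deviated by 1.26 and its neighbours by 0.86, with 16 of 24 above 0.5. In Rb/p53-deleted PB2 the values were 0.70 and 0.75, with 19 of 24 above 0.5.

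Rb/p53-mutated PB4 and PB3 were intermediate, with neighbour medians of 0.38 and 0.32 beside Mycn deviations of 0.85 and 1.04. Rb/p53-mutated PB1, with the least Mycn of its group, had a neighbour median of -0.16. The 10 other Rb/p53-deleted PBs lay between -0.17 and 0.23. Among them PB6 and PB1, with the next highest Mycn of that group, stood at 0.15 and -0.05. In the 4 Rb/p53-mutated PBs with raised neighbours the deviation of Mycn was above the neighbour median, but single neighbours exceeded it: Vsnl1, a calcium sensor gene, deviated by 2.80 in PB5 and 3.08 in PB2, and Nbas by 2.14 and 1.37. In Rb/p53-deleted PB2 Mycn was just under the neighbour median.

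The shift covered long runs of chromosome 12, read in windows of 10 Mb that held 8 to 61 genes. In Rb/p53-mutated PB5 the medians were 1.17 and 1.21 over the first 20 Mb and lay between -0.97 and -0.46 from 50 Mb to the end. In Rb/p53-deleted PB2 they lay between 0.39 and 0.85 over the first 60 Mb and between -0.72 and -0.42 beyond. In Rb/p53-mutated PB2 they lay between 0.47 and 0.89 over the first 50 Mb, with lower and mixed values beyond. Rb/p53-mutated PB3 and PB4 had smaller rises over the first 40 Mb (0.33 to 0.52 and 0.31 to 0.48), and Rb/p53-mutated PB1 lay between -0.23 and -0.11 there. Over the whole of chromosome 12, the medians were -0.50 in Rb/p53-mutated PB5 and -0.36 in Rb/p53-deleted PB2, the lowest of the 19 autosomes in both tumors, and the other autosomes of these tumors lay between -0.21 and 0.03 and between -0.12 and 0.30. DNA copy number was not measured here, and its part in these levels was not tested.

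Max lies in the part of chromosome 12 that was low in those tumors. In Rb/p53-deleted PB2, Max deviated by -0.43 and the other 42 genes of its 10 Mb window by a median of -0.62, and Max was the lowest of all tumors there (10.08). In Rb/p53-mutated PB5, Max deviated by -0.02 although its window stood at -0.86. Dicer1, which lies on the same chromosome, was also lowest in these tumors within their groups (9.85 in Rb/p53-mutated PB5 and 10.11 in Rb/p53-deleted PB2). Rb/p53-deleted PB11 (10.16) and PB10 (10.19) were nearly as low for Dicer1, with medians over chromosome 12 of 0.10 and 0.02.

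Within 1 Mb of Mycn 3 genes were measured. Like Mycn, Ddx1, Nbas and Cyria were highest in PB5 and PB2 of the Rb/p53-mutated group and in PB2 of the Rb/p53-deleted group. For Cyria the lead of Rb/p53-mutated PB2 was narrow (8.48, against 8.44 in PB4), while PB5 read 9.14 and Rb/p53-deleted PB2 read 9.55. Ddx1, an RNA helicase gene known to be co-amplified with MYCN in human neuroblastoma, read 11.83, 12.83, 12.45, 12.41 and 13.31 in Rb/p53-mutated PB1 to PB5 and 11.64 to 12.72 in Rb/p53-deleted PBs with PB2 highest, against 11.24 to 11.56 in cerebellum. Nbas, a gene of vesicle traffic, read 9.46, 11.07, 10.17, 10.48 and 11.84 in Rb/p53-mutated PBs and 9.43 to 10.45 in Rb/p53-deleted PBs, again with PB2 highest, against 9.88 to 9.93 in cerebellum. Between the tumor models, Ddx1 (0.61, SE 0.19, adjusted p = 0.0136) and Nbas (0.89, SE 0.26, adjusted p = 0.0102) were called higher in Rb/p53-mutated PBs with overlapping groups, and Cyria was not (0.26, SE 0.23, adjusted p = 0.357). Against cerebellum Cyria was lower in both models (-1.78 and -2.04), so genes beside Mycn did not all stand above cerebellum.

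Myc (chr15:61985341-61990361) deviated by more than the median of its neighbours at the high end. In Rb/p53-deleted PB9, the tumor with the most Myc, Myc deviated by 1.13 and the 22 other genes within 5 Mb by a median of 0.11, with 1 above 0.5, Ndrg1 (1.13, as far as Myc). The 9 other genes of the 10 Mb window that holds Myc had a median of 0.41 in PB9, the highest of the 16 tumors. In Rb/p53-deleted PB6, Myc deviated by 0.61 and the genes within 5 Mb by 0.01. The highest median of the genes within 5 Mb was in Rb/p53-deleted PB5 (0.31, with 19 of 22 above 0), where Myc deviated by -0.10. The low end differed in part: in Rb/p53-mutated PB2, Myc deviated by -1.49 and its neighbours by -0.52, with 1 of 22 above 0, and in Rb/p53-deleted PB4 by -0.52 and -0.30, with 0 of 22 above 0. In Rb/p53-mutated PB5 and Rb/p53-deleted PB2, Myc deviated by -0.75 and -0.74 beside neighbour medians of -0.10 and -0.07. Pvt1, the long noncoding RNA that starts 53 kb beyond Myc, ran opposite to Myc against cerebellum, at 7.22 ± 0.375 in Rb/p53-mutated PBs (SD, n = 5) and 6.85 ± 0.233 in Rb/p53-deleted PBs (n = 11), against 8.29 ± 0.125 in cerebellum (n = 3), with differences of -1.07 (SE 0.20, adjusted p = 0.00101) and -1.44 (SE 0.13, adjusted p = 8.48e-08).

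**Figure D4:**
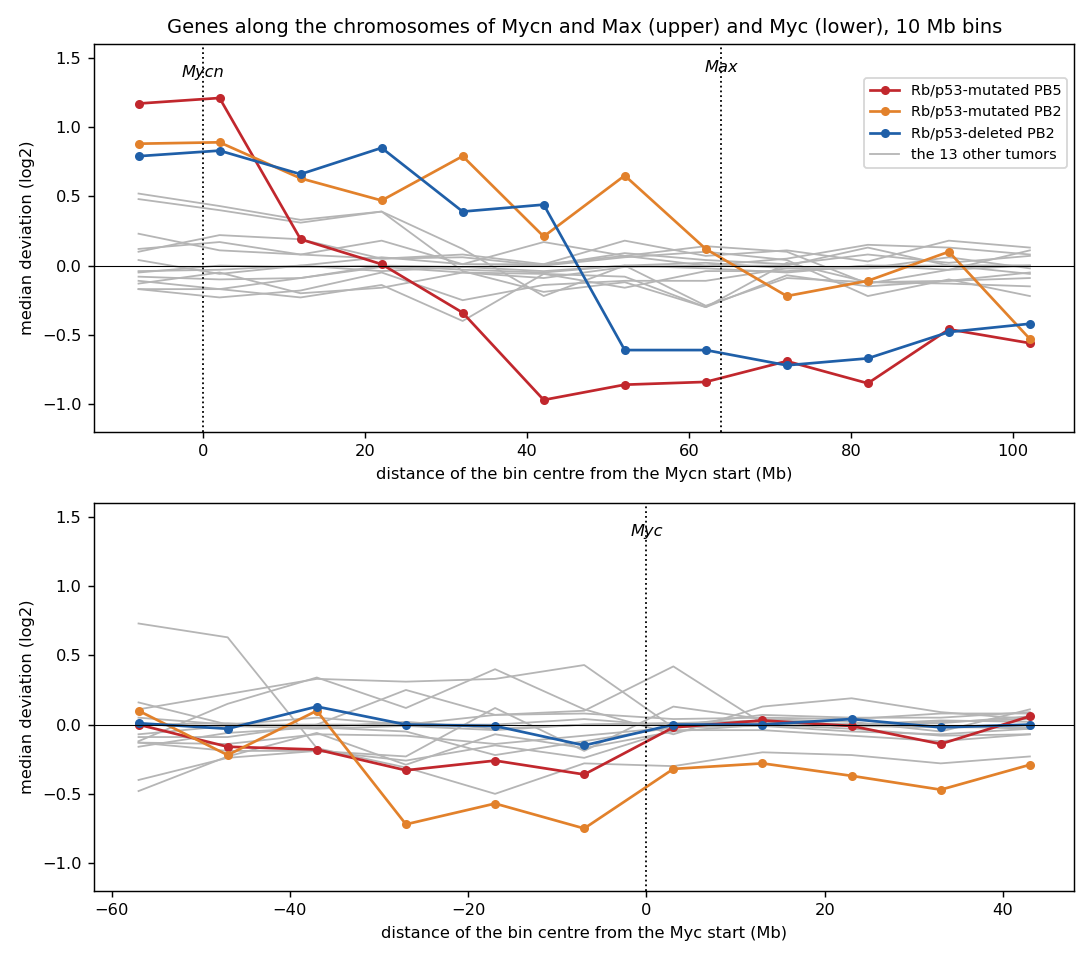
Median log2 deviation from the Rb/p53-deleted PB median in 10 Mb windows, along chromosome 12 by distance in Mb from the Mycn start (upper panel, Max marked) and along chromosome 15 by distance from the Myc start (lower panel). Coloured lines are Rb/p53-mutated PB5, Rb/p53-mutated PB2 and Rb/p53-deleted PB2 and grey lines the 13 other tumors; the coloured lines stand above 0 around Mycn, and the Rb/p53-mutated PB5 and Rb/p53-deleted PB2 lines fall below 0 farther along.

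Between the Rb models, 2 members were called higher with mutated than with deleted p53 and 0 lower, beside 20.7% of all genes called higher and 25.9% lower at an adjusted p of 0.05. Mycn averaged 11.75 ± 0.443 in Rb/p53-mutated PBs (SD, n = 5) and 10.84 ± 0.28 in Rb/p53-deleted PBs (n = 11), 1.87-fold higher (0.90, SE 0.17, adjusted p = 0.000314, 95% interval 0.55 to 1.25). Of the 5 Rb/p53-mutated PBs, 4 lay above every Rb/p53-deleted PB and PB1 lay within their range. These 4 also had raised levels of the genes around Mycn, whose part in the difference of Mycn was not tested. Without Rb/p53-mutated PB5 the difference was 0.77 and still called (adjusted p = 0.00155), and without Rb/p53-mutated PB1 it was 1.07. Mnt was 1.29-fold higher (0.37, SE 0.07, adjusted p = 0.00038), with every Rb/p53-mutated PB above every Rb/p53-deleted PB. The Rb/p53-mutated arrays sit on a scale of their own in the deposited table, and genotype and array scale cannot be told apart: on that scale the median of all genes differed by -0.86, Mycn by 0.23 (adjusted p = 0.205) and Mnt by -0.50. Both members stood above the median gene on either scale, but so did Max, Mxd1, Mxd4 and Mxi1. Microglial markers also differed, with 5 of 9 higher and 1 lower (levels of 8.69 to 9.25, against 8.24 to 8.79), but 1 higher and 6 lower on the deposited scale (median -0.47), and their part in these differences was not tested.

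Myc pointed the other way and was not called (-0.51, SE 0.28, adjusted p = 0.143, 95% interval -1.10 to 0.08), although on the deposited scale it was -1.34 and called (adjusted p = 0.000142). The other 7 members differed by -0.12 to 0.11 without a call, and on the deposited scale by -1.0 to -0.70, all called lower in Rb/p53-mutated PBs. For Max the difference was 0.10 (adjusted p = 0.437, 95% interval -0.11 to 0.31) and for Mxd3 -0.12 (adjusted p = 0.363, 95% interval -0.34 to 0.10).

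The genes that work with the network are described by lists of cofactors, targets and dividing-cell genes, and each count is given for Rb/p53-mutated and then Rb/p53-deleted PBs against cerebellum. Over all genes, 23.8% and 25% were called higher and 27.5% and 27.7% lower in these comparisons. Between the models, 20.7% of all genes were called higher in Rb/p53-mutated PBs and 25.9% lower. The list counts are descriptions only. Of 31 measured genes that MYC proteins are known to raise, 22 were higher and 3 lower in each model, with medians of 0.81 and 0.70. With the deposited arrays centred on their medians, the Rb/p53-mutated PBs had 18 of them above cerebellum and 3 under it, and the Rb/p53-deleted PBs 16 and 4. On the deposited scale itself these counts were 4 and 16 (median -0.30, against -0.92 over all genes) and 14 and 4. The higher genes included Odc1, the first enzyme of polyamine synthesis (2.00 and 2.22), Ccnd2, a G1 cyclin (2.04 and 1.85), Cdk4, its kinase (1.58 in Rb/p53-mutated PBs), and Nop58, a nucleolar protein gene (1.55 in Rb/p53-deleted PBs). Odc1 itself lies 4.61 Mb from Mycn and deviated by 0.53 in Rb/p53-mutated PB5, -0.24 in Rb/p53-mutated PB2 and 0.75 in Rb/p53-deleted PB2. Between the models they were divided, with 7 higher in Rb/p53-mutated PBs and 11 lower (median -0.08), against 8 and 6 with centred arrays (0.04) and 0 and 28 on the deposited scale (-0.82). Among them were the polyamine enzyme gene Srm (0.66, though 0.00 on the deposited scale), Nme1 (-0.68) and the nucleolin gene Ncl (-0.51). Of 4 genes that MYC is known to repress, the Rb/p53-mutated PBs had 0 above cerebellum and 1 below it (median 0.13), and the Rb/p53-deleted PBs 1 and 1 (0.41). The one above was the cell cycle inhibitor gene Cdkn2b (0.77, adjusted p = 2.4e-07). Ndrg2 was the one below in both (-3.22 and -3.69), and Ndrg2 is also an astrocyte gene, a cell type whose markers were at 8.05 to 8.65 and 7.77 to 8.81, against 11 to 11.14 in cerebellum.

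All 9 genes of dividing cells were higher in both models on each of the 3 scales, by medians of 4.30 and 4.59, led by Mki67 (4.93 and 5.15), the cyclin gene Ccna2 (4.76 and 5.18) and the topoisomerase gene Top2a (4.38 and 4.99). The mean level of these genes was 11.36 to 11.70 in Rb/p53-mutated PBs and 11.53 to 12.05 in Rb/p53-deleted PBs, against 7.38 to 7.85 in cerebellum. Its part in the differences of the members, their targets and the genes of the other lists, Aurka and Skp2 below included, was not tested. Between the models, 5 of the 9 were lower in Rb/p53-mutated PBs (3 with centred arrays), including Top2a (-0.61) and Cdk1 (-0.54), while Mycn was higher there.

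For the 8 SIN3 corepressor genes, Rb/p53-mutated PBs had 5 above cerebellum and 2 below it and Rb/p53-deleted PBs had 6 and 1, led by the histone deacetylase gene Hdac1 (1.68 and 1.73) and Sin3a (1.37 and 1.34). Of 12 coactivator genes, 8 were higher and 2 lower, and 7 higher and 1 lower, among them Actl6a (1.67 and 1.86), Ruvbl2 (0.92 and 0.81) and Hcfc1 (1.21 and 0.67), but with centred arrays 4 were higher and 3 lower, and 3 and 3. In the Polycomb complex of MGA, 4 of 8 were higher in each model and 2 and 1 lower, among them the ubiquitin ligase gene Rnf2 (0.84 and 0.87) and Rybp (0.83 and 0.74). With centred arrays 3 of these 8 were higher and 2 lower in each model. On the deposited scale Rnf2 (-0.36), Rybp (-0.36) and Ruvbl2 (-0.26) turned in Rb/p53-mutated PBs. Of 7 genes that set the lifetime of MYC proteins, 3 were higher and 3 lower in each model (medians of -0.02 and 0.01). Aurka, a kinase known from human neuroblastoma to keep MYCN from being degraded, was higher (2.47 and 2.93), as was the ubiquitin ligase gene Skp2 (1.48 and 2.17), whereas Fbxw7, the ligase that marks MYC and MYCN for degradation, was lower (-1.97 and -1.34). The other called genes, named after their values were seen, were the ubiquitin ligase gene Huwe1 (0.75 in both) and the deubiquitinase genes Usp7 (-0.80 and -0.44) and Usp28 (-0.63 and -0.31). In that list 5 of 7 were lower in Rb/p53-mutated than in Rb/p53-deleted PBs, including Skp2 (-0.68), Fbxw7 (-0.63) and Aurka (-0.46), and 0 were higher. In the parallel MLX branch, the glucose-responsive factor gene Mlxipl was higher (2.37 and 2.02) and Mlx lower (-0.48 and -0.72), and all 3 genes of the branch were called higher in Rb/p53-mutated than in Rb/p53-deleted PBs, by a median of 0.35, which turned to -0.50 on the deposited scale.

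On the version 2.0 arrays, no member was called between the Dicer1 models with and without Rb deletion (0% of 22180 genes called at an adjusted p of 0.05, with 1941 genes and 1 member, Mxi1, at an unadjusted p under 0.05). These levels are as deposited and are not set against those of the other arrays. Mycn read 6.68, 7.43 and 7.14 in Rb/Dicer1/p53-deleted PBs, against 7.16, 7.51 and 7.53 in Dicer1/p53-deleted PBs (-0.32, SE 0.23, adjusted p = 0.716, 95% interval -0.84 to 0.21). Myc read 5.78, 5.81 and 5.73, against 5.68, 6.24 and 5.40 (0.00, SE 0.23, adjusted p = 0.998, 95% interval -0.52 to 0.52). With 3 tumors each, changes of Myc of less than about 0.52 on the log2 scale are within the interval. Within these 6 tumors, Dicer1/p53-deleted PB2 had the most Myc. For Mycn, Dicer1/p53-deleted PB3 (7.53) and PB2 (7.51) were nearly level at the top.

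Mxi1 and Max were the 2 members whose groups did not overlap, beside 14.8% of all genes. Mxi1 read 7.89, 8.53 and 7.88 in Rb/Dicer1/p53-deleted PBs, against 7.50, 7.63 and 7.35 in Dicer1/p53-deleted PBs (1.53-fold, 0.61, SE 0.21, unadjusted p = 0.0222, adjusted p = 0.508). A second probe set of Mxi1 had the same order, at 7.48, 7.76 and 7.49, against 7.23, 7.24 and 7.01. Max read 8.41, 8.41 and 8.43, against 8.58, 8.69 and 8.61 (-0.21, SE 0.14, unadjusted p = 0.169, adjusted p = 0.688). Neither passed the correction. Rb1, deleted in the first group, read 8.30 to 8.79, against 9.52 to 9.97 (-1.16, SE 0.20, adjusted p = 0.371), and was not called either.

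Rb/p53-deleted PB12, the only tumor of its kind on these arrays, had the highest level of the 7 for both MYC genes: Myc 7.15, against 5.73 to 5.81 in Rb/Dicer1/p53-deleted PBs and 5.40 to 6.24 in Dicer1/p53-deleted PBs, and Mycn 8.02, against 6.68 to 7.43 and 7.16 to 7.53. It also had the highest Mxd3 (6.63, against 5.39 to 6.06 and 5.48 to 6.04) and the highest Mki67 (11.51, against 11.04 to 11.29 and 10.71 to 11.20), and the lowest Mxd4 (6.67). The mean level of the 9 genes of dividing cells was not highest in PB12 (10.05, against 9.79 to 10.11 and 9.62 to 10.11). With a single tumor this has no replicate check and no test. On these arrays the genes within 5 Mb of Mycn were read against the median of the Dicer1-deleted tumors, with and without Rb deletion. They deviated by medians of -0.10 to 0.00 in the Rb/Dicer1/p53-deleted tumors, -0.03 to 0.21 in the Dicer1/p53-deleted ones and 0.11 in Rb/p53-deleted PB12. A shift shared by the Dicer1-deleted tumors would not show on this reference. These medians are therefore not set against those of Rb/p53-mutated PB5 and PB2.

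**Figure D5:**
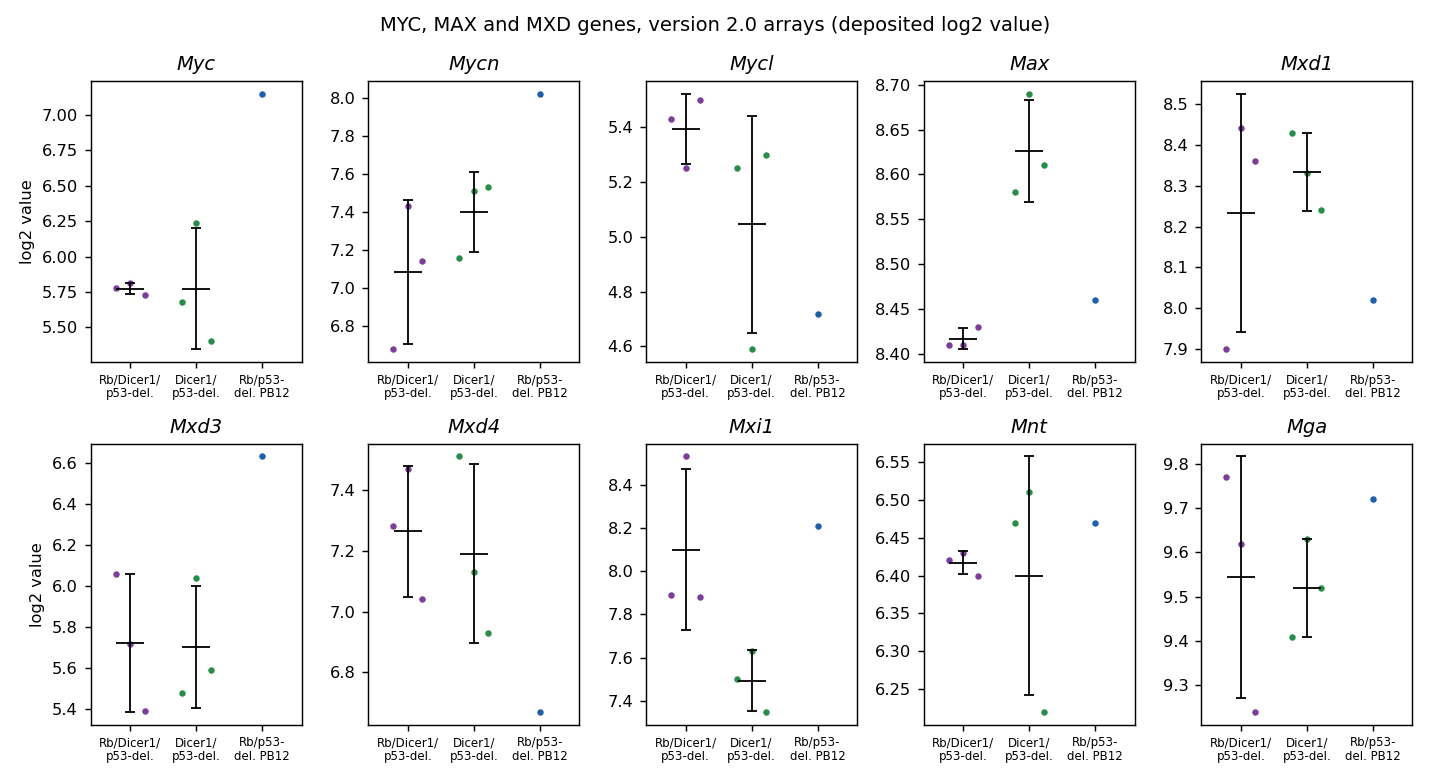
Log2 level, as deposited, of each of the 10 members in every version 2.0 array (3 Rb/Dicer1/p53-deleted PBs, 3 Dicer1/p53-deleted PBs, 1 Rb/p53-deleted PB). Points are arrays and bars the mean ± SD of the groups of 3; Rb/p53-deleted PB12 is highest for Myc, Mycn and Mxd3.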

How the data were processed

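RNA was extracted from mouse PBs and normal cerebellum in Trizol, and each sample was run on an Affymetrix Mouse Gene array, version 1.0 ST (19 arrays) or 2.0 ST (7 arrays). The authors deposited log2 RMA expression values per transcript cluster (35556 and 41345), made in Affymetrix Expression Console, whose version is not given in the sources used here. RMA corrects background, quantile-normalizes and summarizes probes, and which arrays were run together is not given in the sources used here. No test crossed the 2 array versions.

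Groups came from the sample labels. A gene was a transcript cluster with exactly 1 symbol (the cluster of highest mean where several), which left 19938 and 22180 genes. Version 1.0 arrays were quantile-normalized together and version 2.0 values were used as deposited. Genes were tested with limma 3.58.1 in R 4.3.3 (lmFit, eBayes, Benjamini-Hochberg over all genes), each fit holding only its 2 groups, at 0.01 against cerebellum and 0.05 between tumors. Nothing states that the arrays of a group came from separate mice, and p-values measure the spread between these samples. No array was a copy of another: the SD of differences between arrays of a group was at least 0.152. The number of arrays limits the precision. The relations used 100000 permutations, two-sided. The members and gene lists, and the tests, were chosen with earlier results of these data known. Named genes were all members, the targeted genes, up to 3 of each list with the largest called difference, measured genes within 1 Mb of Myc and Mycn, and the 5 genes most like each. The 10 Mb windows, the 5 Mb neighbourhoods and the genes most like Myc and Mycn describe the data without a test, and the windows and neighbourhoods were added after the values were seen. Alternatives covered the scale, the cluster rule, dim genes, the fit, a replicate block and leaving out arrays.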

Additional observations from a re-analysis of the deposited data

Results flagged for a closer look

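The difference between the Rb models, given above, was tested for every member, and 2 of 10 were called higher with mutated p53. Of all genes, 20.7% were called higher and 25.9% lower. Mycn differed from cerebellum by 0.90 more on the log2 scale in Rb/p53-mutated than in Rb/p53-deleted PBs (adjusted p = 0.000314, higher in 4 of 5 Rb/p53-mutated PBs than in every Rb/p53-deleted PB). Mnt differed by 0.37 more (adjusted p = 0.00038, higher in 5 of 5). On the deposited scale the model difference was 0.23 for Mycn, without a call, and -0.50 for Mnt. In Rb/p53-mutated PBs, Mxd4 of PB4 (9.36) stood apart from the other 4 (9.53 to 9.57), with a gap of 0.81 of the range where 0.71 is the critical value for 5 samples. In all, 10 gene groups were read this way, and chance flags about 1 in 20.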

How the results depend on the processing

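Mycn kept its direction and its call against cerebellum under all 15 settings for Rb/p53-mutated PBs (differences of 3.16 to 4.13) and all 13 for Rb/p53-deleted PBs (2.91 to 3.28), as did Myc in Rb/p53-deleted PBs (2.18 to 2.82). Most changes came with the scale. On the deposited scale the median of all genes differed by -0.92 for Rb/p53-mutated PBs against cerebellum and by -0.86 between the Rb models, and calls went to 16076 genes (999 higher) and 18539 genes (147 higher) with 9 members. Against cerebellum it gave 10293 genes (3937 higher) in Rb/p53-deleted PBs, and centring each array on its median gave 10359 (4257 higher). On the deposited scale the differences from cerebellum turned to -0.47 for Mycl, -1.02 for Mxd1, -0.55 for Mnt and -0.33 for Mga in Rb/p53-mutated PBs and to -0.20 for Mxd1 and -0.05 for Mnt in Rb/p53-deleted PBs, and those between the Rb models to -0.70 for Max, -0.82 for Mxd1, -0.76 for Mxd4, -0.73 for Mxi1 and -0.50 for Mnt. With arrays centred on the median, Mxd1 turned to -0.12 and -0.17 and Mnt to -0.01 against cerebellum, and Mga to 0.02 between the Rb models. The relations of Mycn with Mycl (0.06) and with Mki67 (-0.22) also turned on the deposited scale. There the SIN3, coactivator and Polycomb lists had 1, 1 and 0 genes higher and 4, 9 and 6 lower in Rb/p53-mutated PBs than in cerebellum, against 4, 2 and 3 higher and 1, 3 and 2 lower in Rb/p53-deleted PBs.

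With array spread as a block, 5948 genes were called in Rb/p53-deleted PBs against cerebellum. Mnt lost its call there in a single fit of all groups (adjusted p = 0.0121), with a trended fit (0.0122) and with the replicate block (0.0784). The replicate numbers do not pair the arrays (correlations of deviations from -0.205 to 0.288), and with the replicate number as a block 8132 (Rb/p53-mutated) and 8090 (Rb/p53-deleted) genes were called against cerebellum, 6575 between the Rb models and 0 between the Dicer1 models, with 8, 6, 2 and 0 members. In the Dicer1 comparison Mnt turned to -0.01 after quantile normalization. Leaving out 1 array in turn (of the 11 Rb/p53-deleted PBs only PB2 and PB11) gave 7933 to 10398, 8660 to 11631, 8033 to 9881 and 0 to 0 genes and 7 to 8, 6 to 8, 2 to 2 and 0 to 0 members. Uncalled members turned: Mxi1 to 0.02 and Mycl to 0.02 and 0.03 in the Rb comparisons, and in the Dicer1 comparison the differences ranged from -0.21 to 0.06 for Mxd1, -0.15 to 0.19 for Mxd3, -0.09 to 0.18 for Mga, -0.06 to 0.23 for Mxd4 and -0.07 to 0.07 for Mnt. The cause of these shifts was not tested. Of the chromosome 12 and 15 values, 91 kept within the spread of the tumors and 5 moved. Depth has no direct measure on arrays, and 3 or 5 arrays in a group limit the smaller differences. Leaving out Rb/p53-deleted PB2, the scales of the lists and the chromosome settings were chosen after seeing the data.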
